A study of Mus musculus with 8 samples.

Results

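Stat3 and 9 genes around it were examined in sorted luminal cells from the mammary glands of mice on day 15 of pregnancy. The 10 genes encode a cytokine (Lif), receptor chains (Lifr, Osmr, Il6ra and Il6st), the transcription factor Stat3, 2 of its target genes (Socs3 and Cebpd) and 2 factors linked to involution, the regression of the gland after weaning (Igfbp5 and Tgfb3). They were chosen by gene symbol, and each had a single probe set among the 19505 named genes of the array. The samples were 4 of luminal cells labelled a3a6KO and, as controls, 4 labelled Ctrl, described as biological replicates. All came from 15-day-pregnant mice, and the cells were taken from fresh tissue by enzymatic digestion, antibody labelling and flow sorting. The name a3a6KO refers to the laminin-binding integrin chains alpha 3 and alpha 6. The promoter that drove the deletion, the age and strain of the mice and whether any animals were pooled are not stated in the labels, and the titles of the a3a6KO samples also carry the word Ctrl.

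Cytokines of the interleukin-6 family, among them Lif, bind a receptor chain of their own (Lifr, Osmr or Il6ra) together with the shared chain Il6st, and the bound receptor activates Jak kinases. These phosphorylate Stat3, which then enters the nucleus and induces genes such as Socs3, a feedback inhibitor of the same receptors, and Cebpd, a transcription factor. In the mammary gland, Stat3 becomes phosphorylated when milk stops being removed, and mice that lack epithelial Stat3 regress their glands late. Lif acts on Stat3 at the onset of this regression, oncostatin M sustains it through Osmr, Tgfb3 is induced by milk stasis, and Igfbp5 binds insulin-like growth factors and is secreted in large amounts by the regressing epithelium. The comparison asked whether a3a6KO cells differed from Ctrl cells in this pathway during pregnancy. The arrays measure RNA and not phosphorylation, so the activity of the Stat3 protein was not measured.

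The sequence that Stat3 dimers bind has the core TTCNNNGAA, which reads the same on both strands, with TTCCNGGAA as a preferred form. Among RefSeq promoters of build GRCm38.p6, 8 of the 10 genes had an entry. In the 250 bases before the gene start, the core was found in 1 of the 8, Socs3, and in 2306 of all 32851 promoters (7.02%), while TTCCNGGAA was found in 0 of the 8 and in 300 of all promoters (0.913%). Of 21 further Stat3 target genes with an entry, 1 held the core, Bcl6, which encodes a transcriptional repressor. Bcl6 was also the 1 of the 21 that held TTCCNGGAA, in the forms TTCCTGGAA and TTCCGGGAA. The 8 and the 21 are counted by gene, with a core in any of its promoters, and all promoters by entry. A gene can have several entries, so these shares are not of like units. These are the sequences of both genes, shown because they are the targets measured here whose promoters hold the core, with each core in capitals. The Socs3 stretch covers chr11:117969367-117969616 on the minus strand. The Bcl6 stretches cover chr16:23981347-23981467 and chr16:23988946-23988986, also on the minus strand, upstream of 2 different starts of the gene. The starts are labelled by rising coordinate, so on this strand the start labelled second lies upstream of the start labelled first.
Socs3: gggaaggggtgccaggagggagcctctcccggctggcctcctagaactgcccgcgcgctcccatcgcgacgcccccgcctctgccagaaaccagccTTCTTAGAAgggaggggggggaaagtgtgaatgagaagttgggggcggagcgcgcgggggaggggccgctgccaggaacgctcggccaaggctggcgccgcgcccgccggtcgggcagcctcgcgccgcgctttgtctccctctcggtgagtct
Bcl6, first start: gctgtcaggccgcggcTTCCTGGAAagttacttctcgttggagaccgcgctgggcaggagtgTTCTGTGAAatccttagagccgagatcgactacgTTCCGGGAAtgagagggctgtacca
Bcl6, second start: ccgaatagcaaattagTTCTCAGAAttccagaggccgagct
The Socs3 core lies 154 to 146 bases before the gene start. A match describes the sequence and does not show that Stat3 was bound there in these cells.

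No gene of the pathway passed the test between a3a6KO and Ctrl. The limma fit called 0 of the 10 genes and 0 of all 19505 genes (0%), while 1000 of all genes (5.13%) and 0 of the 10 had an unadjusted p under 0.05. Leaving out 1 sample brought 1 of the 10 under that value in 3 of the 8 fits, each time with a lower mean in a3a6KO, namely Lif without a3a6KO 2, Stat3 without a3a6KO 3 and Il6st without Ctrl 1, with adjusted p-values of 0.94, 0.908 and 0.956 in limma. Means were higher in a3a6KO for 4 of the 10 genes and lower for 6, against 49.6% of all genes higher and 50.1% lower. Their median log2 difference was -0.12, beside -0.0025 over all genes, and it ranged from -0.23 to -0.02 when single samples were left out. The groups overlapped in all 10, where 573 of all genes (2.94%) had groups that did not overlap. All differences are log2 values of a3a6KO minus Ctrl from the limma fit, and the 10 adjusted p-values ran from 0.944 to 0.995.

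How far each gene rose above background sets how far these values can be read. A gene counts as above background on an array where it exceeds the 95th percentile of the 5222 negative control probe sets of that array, which lay between 6.38 and 6.90. Lif, Stat3, Cebpd, Igfbp5 and Tgfb3 were above it on all 8 arrays, as were 1609 of all genes (8.25%). Osmr and Il6st were above it on 1 array each, and Lifr, Il6ra and Socs3 on 0, as were 14900 of all genes (76.4%). The median of the negative sets was lower, at 2.85 to 3.07, so a gene under that percentile is not shown to be absent. Across arrays Osmr exceeded 84.8 to 95.2% of the negative sets, Il6st 74.4 to 95.6%, Lifr 63.4 to 92.8%, Il6ra 74.8 to 94.0% and Socs3 75.0 to 90.9%. The log2 differences of these 5 genes are printed for completeness, are of uncertain size and are not turned into folds. All 9 measured luminal marker genes were above background on every array, with the keratin gene Krt8 at 10.5 ± 0.14 in a3a6KO and 10.4 ± 0.19 in Ctrl (log2, SD, n = 4). Means were higher in a3a6KO for 7 of the 9 and lower for 2, with 0 called. In limma 1 of the 9, with a lower mean in a3a6KO, had an unadjusted p under 0.05, beside 5.13% of all genes. Its groups did not overlap, beside 2.94% of all genes. Itga6, one of the genes the label names as knocked out, was at 5.95, 3.65, 8.21 and 7.85 in a3a6KO 1 to 4, against 8.83, 8.73, 9.14 and 8.80 in Ctrl 1 to 4, so it exceeded background in a3a6KO 3 and 4 and did not in a3a6KO 1 and 2. Where its probes lie relative to any deleted part is not known here, and every difference given here is between samples as labelled, 2 of which kept Itga6 RNA above background. Itga3 was at 5.11, 4.34, 5.55 and 5.60 in a3a6KO 1 to 4, against 6.72, 6.30, 5.37 and 7.27 in Ctrl 1 to 4, and exceeded background on 1 array.

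**Figure D1:**
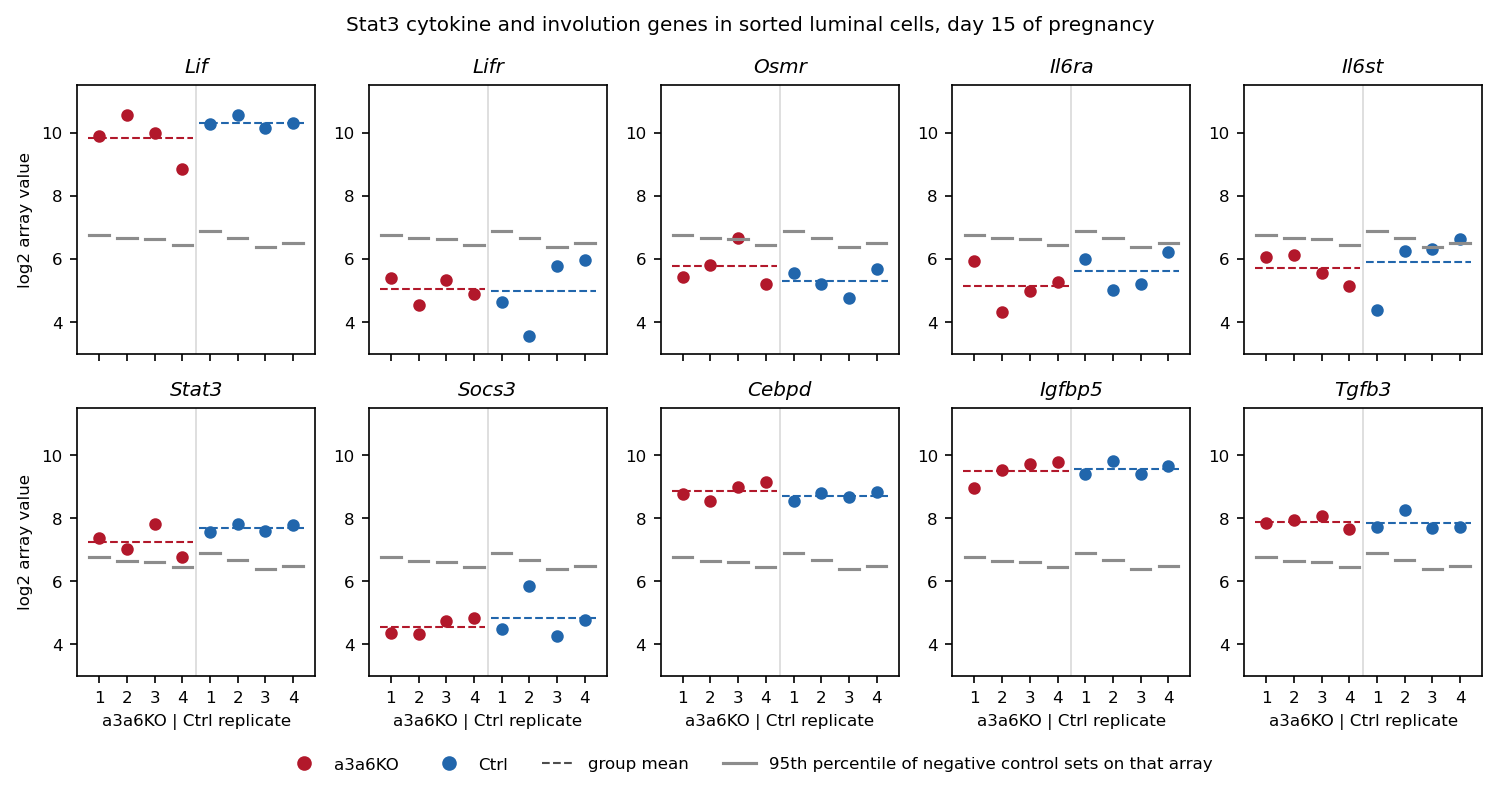
Log2 array values of the 10 genes (vertical axis) in each a3a6KO and Ctrl sample (horizontal axis), with dashed group means and, as grey marks, the 95th percentile of the negative control sets of each array. Lif, Stat3, Cebpd, Igfbp5 and Tgfb3 lie above the grey marks on all 8 arrays, whereas the receptor genes and Socs3 lie below them on nearly all arrays, and no gene separates the groups.

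The ligand gene Lif, whose product can start Stat3 signalling in the regressing gland, was well above background in both groups. Its log2 values were 9.91, 10.57, 9.98 and 8.84 in a3a6KO 1 to 4, against 10.27, 10.57, 10.14 and 10.31 in Ctrl 1 to 4. Of the a3a6KO samples 3 lay below every Ctrl sample and a3a6KO 2 equalled the highest. The means were 9.83 ± 0.72 in a3a6KO and 10.3 ± 0.18 in Ctrl (SD, n = 4), a difference of -0.50 (SE 0.327, 95% interval -1.23 to 0.24, limma adjusted p = 0.948). It was -0.17 without a3a6KO 4, the lowest sample, and -0.75 without a3a6KO 2, the highest, so its size depends on single arrays. The upper end of the interval is 1.18-fold.

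The receptor genes were near or below background, and their values spread widely within both groups. Lifr, the ligand-binding chain for Lif, was at 5.41, 4.53, 5.34 and 4.88 in a3a6KO 1 to 4, against 4.64, 3.57, 5.78 and 5.97 in Ctrl 1 to 4. The a3a6KO values thus all lay inside the range of the Ctrl values, and the difference was 0.05 (SE 0.496, adjusted p = 0.995 in limma), which was -0.42 without Ctrl 2 and 0.38 without Ctrl 4. Il6ra, the chain that binds interleukin-6, was at 5.94, 4.32, 5.0 and 5.28 in a3a6KO 1 to 4, against 5.99, 5.01, 5.21 and 6.22 in Ctrl 1 to 4. Its difference of -0.47 (SE 0.383, adjusted p = 0.95 in limma) became -0.20 without a3a6KO 2 and -0.74 without a3a6KO 1. Il6st, the chain that all these receptors share, was at 6.06, 6.12, 5.57 and 5.13 in a3a6KO 1 to 4, against 4.38, 6.24, 6.33 and 6.63 in Ctrl 1 to 4. Ctrl 1 was by far the lowest of the 8 samples and the other 3 Ctrl values lay above all a3a6KO values. The difference of -0.18 (SE 0.471, adjusted p = 0.980 in limma) was -0.68 without Ctrl 1 and 0.07 without Ctrl 4.

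Osmr, the receptor chain for oncostatin M, was likewise measured mostly below background. Its values were 5.42, 5.82, 6.67 and 5.2 in a3a6KO 1 to 4, against 5.54, 5.22, 4.77 and 5.67 in Ctrl 1 to 4. Only a3a6KO 3 exceeded background, and 2 of the 4 a3a6KO samples lay above every Ctrl sample. The difference was 0.48 (SE 0.334, interval -0.28 to 1.23, limma adjusted p = 0.948), and 0.18 without a3a6KO 3. In that sample the markers of basal and endothelial cells were also high. The mean log2 level of the 13 basal markers was 7.04 in a3a6KO 3 and between 5.45 and 5.59 in the other a3a6KO samples, and it ran from 6.03 to 7.69 in Ctrl, where Ctrl 4 was highest. The mean of the 8 measured endothelial markers was 6.33 in a3a6KO 3, 3.95 to 5.03 in the other a3a6KO samples, and 4.35 to 6.67 in Ctrl, again with Ctrl 4 highest. Of these lists 2 basal and 0 endothelial genes exceeded background on every array, and 12 of the 13 basal genes had lower means in a3a6KO, with 0 called. In limma 4 of the 13 had an unadjusted p under 0.05, beside 5.13% of all genes. Krt14, a keratin of basal cells, exceeded background on all 8 arrays and averaged 7.77 ± 0.89 in a3a6KO and 9.36 ± 1.48 in Ctrl (SD, n = 4). Their part in the values of Osmr was not tested. In sorted bulk samples such as these, fewer cells of a type and less RNA per cell cannot be told apart.

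Stat3 itself was above background on all arrays and, on average, lower in a3a6KO. Its values were 7.37, 7.01, 7.81 and 6.76 in a3a6KO 1 to 4, against 7.55, 7.81, 7.59 and 7.80 in Ctrl 1 to 4. The Ctrl samples lay close together, whereas 3 a3a6KO samples lay below all of them and a3a6KO 3 equalled the highest. Of the a3a6KO samples, a3a6KO 3 also had the highest Itga6 value (8.21) and the highest basal and endothelial marker levels. Their part in the values of Stat3 was not tested. The means were 7.24 ± 0.46 in a3a6KO and 7.69 ± 0.14 in Ctrl (SD, n = 4), and the difference of -0.45 had an SE of 0.234 and a 95% interval of -0.98 to 0.08 (limma adjusted p = 0.944). The upper end of that interval is 1.05-fold. The difference was -0.64 without a3a6KO 3 and -0.29 without a3a6KO 4, with the same sign in all 8 such fits. As with Lif, the lowest of the a3a6KO values was that of a3a6KO 4.

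**Figure D2:**
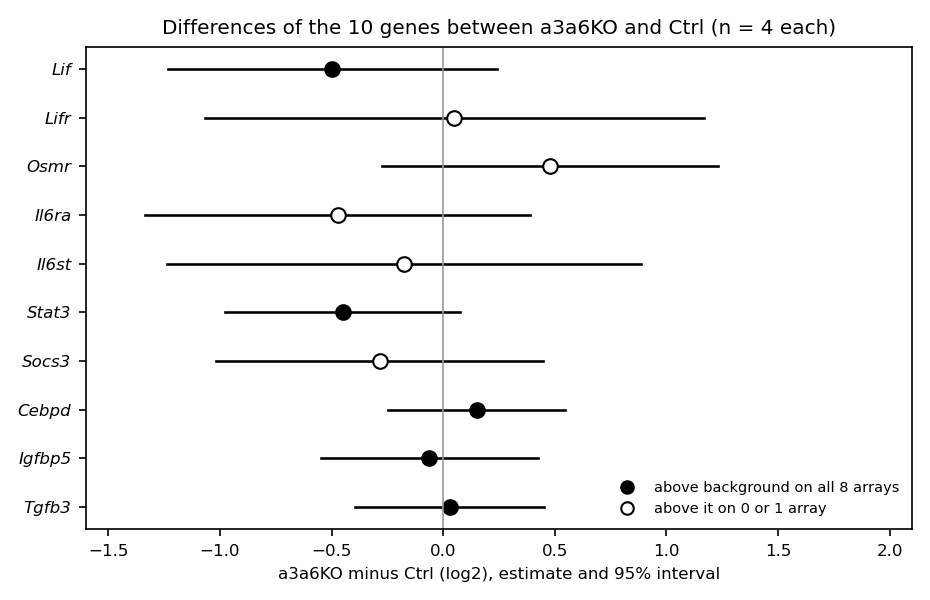
Difference between a3a6KO and Ctrl for each of the 10 genes (horizontal axis, log2, a3a6KO minus Ctrl), with bars for the 95% interval of the limma fit over 4 samples per group. Filled points are the 5 genes above background on all arrays and open points the others, and every bar crosses 0.

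The 2 Stat3 target genes did not differ beyond the spread of the replicates. Socs3 was at 4.35, 4.34, 4.73 and 4.83 in a3a6KO 1 to 4, against 4.5, 5.84, 4.27 and 4.78 in Ctrl 1 to 4, below background throughout. Ctrl 2 stood above the other samples, and the difference of -0.28 (SE 0.326, limma adjusted p = 0.956) became 0.046 without it. Cebpd, which Stat3 induces during involution, was at 8.78, 8.56, 9.0 and 9.14 in a3a6KO 1 to 4, against 8.56, 8.79, 8.69 and 8.84 in Ctrl 1 to 4. Of the a3a6KO samples, replicates 3 and 4 lay above every Ctrl sample. Its means were 8.87 ± 0.25 in a3a6KO and 8.72 ± 0.12 in Ctrl (SD, n = 4), a difference of 0.15 (SE 0.176, interval -0.25 to 0.55, limma adjusted p = 0.957), which was 0.06 without a3a6KO 4 and 0.25 without a3a6KO 2. The upper end of the interval is 1.46-fold.

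Immediate early genes, which cells also switch on during tissue digestion, were abundant in both groups, and Socs3 and Cebpd can respond to such treatment too. Of 18 such genes 17 were above background on every array. Means were lower in a3a6KO for 12 and higher for 6, with 0 called and a median difference of -0.15. Their mean level was 9.32, 9.21, 8.70 and 9.06 in a3a6KO 1 to 4, against 9.40, 9.28, 9.17 and 8.94 in Ctrl 1 to 4. The groups overlapped, and a3a6KO 3 was the lowest sample. Their part in the values of the 10 genes was not tested.

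Igfbp5, the growth factor binding protein of the regressing gland, was abundant and nearly equal in both groups. Its values were 8.97, 9.54, 9.72 and 9.78 in a3a6KO 1 to 4, against 9.40, 9.80, 9.39 and 9.67 in Ctrl 1 to 4. Of the a3a6KO values only that of a3a6KO 1 lay outside the Ctrl range, below it. The means were 9.5 ± 0.37 in a3a6KO and 9.57 ± 0.20 in Ctrl (SD, n = 4), a difference of -0.06 (SE 0.216, interval -0.55 to 0.42, limma adjusted p = 0.984), and the upper end of the interval is 1.34-fold. The sign turned without a3a6KO 1 (0.12).

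Tgfb3, a secreted growth factor that milk stasis induces, was likewise at the same level in both groups within the replicate spread. Its values were 7.86, 7.93, 8.06 and 7.66 in a3a6KO 1 to 4, against 7.71, 8.27, 7.69 and 7.72 in Ctrl 1 to 4. Ctrl 2 was the highest of all samples, and the other Ctrl values lay between 7.69 and 7.72. The means were 7.88 ± 0.17 in a3a6KO and 7.85 ± 0.28 in Ctrl (SD, n = 4), a difference of 0.03 (SE 0.188, interval -0.39 to 0.45, limma adjusted p = 0.992), which was 0.17 without Ctrl 2. The upper end of the interval is 1.37-fold. For Lif, Stat3, Igfbp5 and Tgfb3, a rise of 1.5-fold or more in a3a6KO lay outside the 95% interval of the array values with all samples and in each of the 8 fits that left out 1 sample, where the upper ends reached 1.34, 1.16, 1.47 and 1.48-fold. For Cebpd it lay outside with all samples but in only 3 of those 8 fits, and the upper end reached 1.58-fold without a3a6KO 2. The 1.5-fold mark was not part of the test design and lies close above the highest upper end with all samples (1.46-fold, Cebpd). The intervals hold for single genes and are not adjusted for reading several together.

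The other genes of the pathway were counted in 6 lists, and 0 of their genes passed the test. Beside the 5.13% of all genes, an unadjusted p under 0.05 was found in 0 of 10 family ligands and receptors, 5 of 23 kinase, Stat and feedback genes, 3 of 26 targets, 2 of 20 involution genes, 0 of 19 TGF-beta genes and 1 of 15 growth factor axis genes. Of 10 measured ligands and receptors of the interleukin-6 family other than those above, 3 had higher and 7 lower means in a3a6KO, with a median difference of -0.08, and 8 of the 10 exceeded background on no array. The smallest p-values belonged to the ligand gene Clcf1 (-0.66, SE 0.331), the receptor gene Il27ra (0.41, SE 0.260) and the cytokine subunit gene Ebi3 (-0.40, SE 0.268), each below background on every array. Interleukin-6 itself, singled out after its values were seen, varied widely between samples. Il6 was at 7.81, 5.43, 8.18 and 5.41 in a3a6KO 1 to 4, against 5.39, 3.35, 4.22 and 9.08 in Ctrl 1 to 4. Its 3 values above background were those of a3a6KO 1, a3a6KO 3 and Ctrl 4, the 3 samples with the highest endothelial marker levels (5.03, 6.33 and 6.67, with a3a6KO 4 next at 4.99). The part of these markers in the Il6 values was not tested, and the Il6 difference of 1.2 had an SE of 1.19.

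Kinases, other Stat genes and feedback inhibitors were higher in 14 and lower in 9 of 23 measured genes, with a median of 0.08. The 5 with an unadjusted p under 0.05 were Socs7, Cish and Tyk2, with lower means in a3a6KO, and Pias4 and Socs5, with higher means. Socs7, of the same family as Socs3, had the smallest p, with values of 4.73, 5.05, 4.97 and 4.90 in a3a6KO 1 to 4, against 6.0, 5.68, 5.23 and 6.22 in Ctrl 1 to 4. Each a3a6KO value lay below each Ctrl value, all below background (-0.87, SE 0.225, limma adjusted p = 0.944). Groups did not overlap in 1 of the 23 genes, Socs7, beside 2.94% of all genes. Cish, a feedback inhibitor induced mainly by Stat5, was at 6.73 ± 0.72 in a3a6KO and 7.90 ± 0.35 in Ctrl (SD, n = 4), a difference of -1.17 (SE 0.348). Pias4, whose product inhibits Stat proteins, differed by 0.66 (SE 0.221), below background. Tyk2, a Jak kinase gene singled out as the widest difference of the list, was at 5.32, 5.35, 6.36 and 4.15 in a3a6KO 1 to 4, against 7.31, 5.77, 6.55 and 6.28 in Ctrl 1 to 4. It exceeded background on 0 a3a6KO and 2 Ctrl arrays, the groups overlapped, and it did not pass (-1.18, SE 0.465, limma adjusted p = 0.944).

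Further target genes of Stat3 were higher in 10 and lower in 16 of 26 measured genes, with a median of -0.14 and 13 genes above background on every array. Saa2, an acute phase protein gene, was at 4.78 ± 0.24 in a3a6KO and 5.71 ± 0.63 in Ctrl (SD, n = 4), a difference of -0.93 (SE 0.303) with 1 Ctrl array above background. Timp1, an inhibitor of matrix proteases, was at 7.11, 5.73, 6.06 and 6.61 in a3a6KO 1 to 4, against 5.18, 5.10, 5.85 and 5.82 in Ctrl 1 to 4. Its difference of 0.89 (SE 0.322) did not pass (limma adjusted p = 0.944), and 2 a3a6KO arrays and 0 Ctrl arrays exceeded background. The kinase gene Pim3 differed by -0.44 (SE 0.190), below background. Bcl6, named because its promoter sequence holds the Stat3 core, was at 6.49, 4.70, 6.90 and 6.91 in a3a6KO 1 to 4, against 5.0, 5.10, 6.29 and 7.03 in Ctrl 1 to 4, and the groups overlapped.

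Genes of involution beyond the 10, among them proteases, death receptors and their ligands, were higher in 11 and lower in 9 of 20 measured genes, with a median of 0.03 and 9 genes above background on no array. Timp1 and 2 others of this list also stand in the target list. Irf1, a transcription factor gene, was at 7.27 ± 0.49 in a3a6KO and 8.01 ± 0.41 in Ctrl (SD, n = 4), a difference of -0.74 (SE 0.288). Tnfrsf1a, which encodes a receptor for tumour necrosis factor, was at 7.66 ± 0.76 in a3a6KO and 6.87 ± 0.39 in Ctrl (SD, n = 4), a difference of 0.78 (SE 0.368). Neither passed (adjusted p = 0.944 for each in limma). Clu, the clusterin gene, a classical marker of the regressing gland that was singled out after its values were seen, was at 10.44, 10.43, 10.37 and 10.33 in a3a6KO 1 to 4, against 10.29, 10.45, 10.31 and 10.43 in Ctrl 1 to 4. The samples lay close together, and the difference of 0.02 had a 95% interval of -0.29 to 0.34.

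Genes of TGF-beta signalling were higher in 12 and lower in 7 of 19 genes with a median of 0.04, and genes of the insulin-like growth factor axis higher in 9 and lower in 6 of 15 with a median of 0.08. Tgif1, a repressor of TGF-beta responses that was above background on every array, differed by -0.31 (SE 0.192), the ubiquitin ligase gene Smurf2 by 0.42 (SE 0.266) and the receptor gene Tgfbr1 by 0.37 (SE 0.296). Smurf2 exceeded background on 1 array and Tgfbr1 on 0. In the growth factor axis, the receptor gene Igf2r differed by 0.88 (SE 0.345), the protease gene Pappa by -0.43 (SE 0.20) and the ligand gene Igf1 by 0.78 (SE 0.396). Igf2r exceeded background on 2 arrays, and Pappa and Igf1 on 0. Of 9 milk protein genes, 8 had lower means in a3a6KO, with 0 called and a median of -0.20. An unadjusted p under 0.05 in limma was found in 2 of the 9, beside 5.13% of all genes. Their mean level was 10.39, 10.52, 10.74 and 10.76 in a3a6KO 1 to 4, against 10.85, 10.88, 10.83 and 10.97 in Ctrl 1 to 4, so the groups did not overlap in this mean. In the means of the 6 further pathway lists and the other marker lists the groups overlapped. Gene by gene, 1 of the 9 had groups that did not overlap, beside 2.94% of all genes. Csn1s1, a casein gene singled out after its values were seen, was at 11.63, 11.82, 11.81 and 11.82 in a3a6KO 1 to 4, against 12.07, 12.08, 11.86 and 12.05 in Ctrl 1 to 4, a difference of -0.24 (SE 0.145) with no overlap between the groups. Lalba, a lactose synthase subunit gene singled out in the same way, averaged 8.79 ± 0.51 in a3a6KO and 9.53 ± 0.46 in Ctrl (SD, n = 4), a difference of -0.74 (SE 0.306), and neither gene passed. The whey protein gene Wap, whose RNA declines in the regressing gland, was at 11.6 ± 0.37 in a3a6KO and 12.2 ± 0.41 in Ctrl (SD, n = 4). Its difference of -0.585 had an SE of 0.258 and a 95% interval of -1.17 to -0.005, and it did not pass (limma adjusted p = 0.944). The casein gene Csn2 was at 12.4 ± 0.11 in a3a6KO and 12.5 ± 0.11 in Ctrl.

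**Figure D3:**
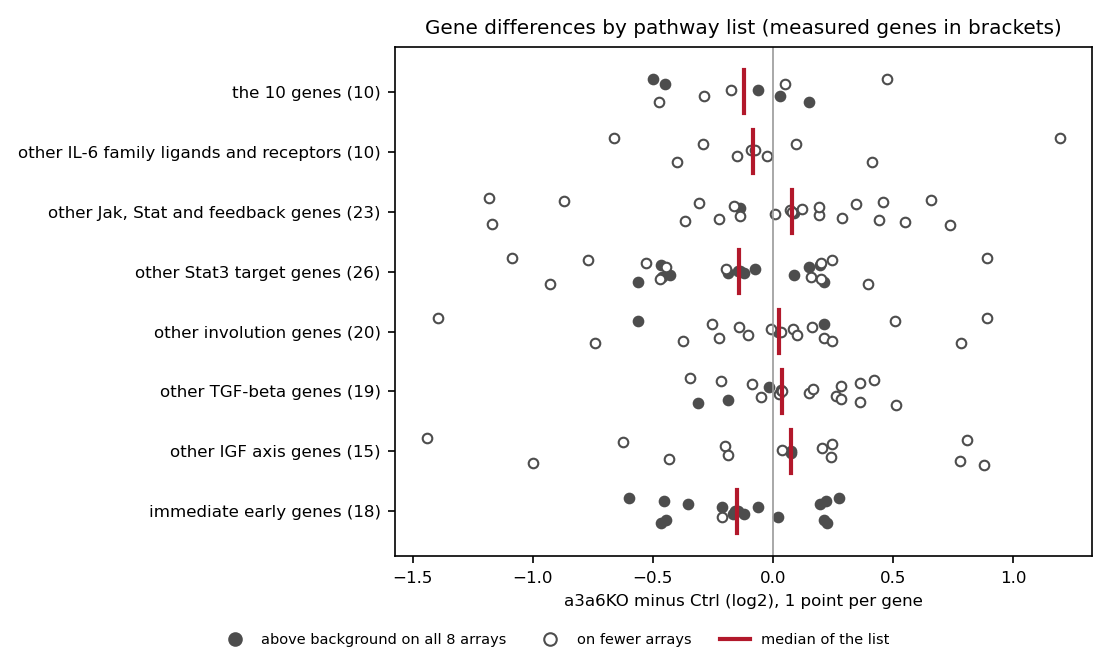
Difference between a3a6KO and Ctrl of each measured gene (horizontal axis, log2, a3a6KO minus Ctrl) in the 10 genes, the 6 further pathway lists and the immediate early genes (vertical axis), with red bars for list medians. The medians lie between -0.15 and 0.08, and the widest differences belong to open points, genes not above background on all arrays.

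Over the 8 arrays, the genes whose values ran most like those of 3 members were sought among the named, non-predicted genes above background on every array, 1598 for Socs3 and 1597 for Stat3 and Igfbp5. For Stat3 they were Bach1, a transcriptional repressor gene (Pearson's r = 0.95, Spearman's rho = 0.898), Emc4 (r = 0.909) and Aldoa (r = 0.904). For Igfbp5 they were Tmed2 (r = 0.947), Ssu72 (r = 0.917) and Blcap (r = 0.907), and for Socs3 Rps4x (r = 0.926, rho = 0.619), Sec61g (r = 0.904) and Cox6b1 (r = 0.889). Socs3 itself was below background on all 8 arrays, and its value in Ctrl 2 (5.84) stood apart from the next highest (4.83), so its correlations rest largely on that sample. All of these are the highest of many values over few arrays and carry no test.

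**Figure D4:**
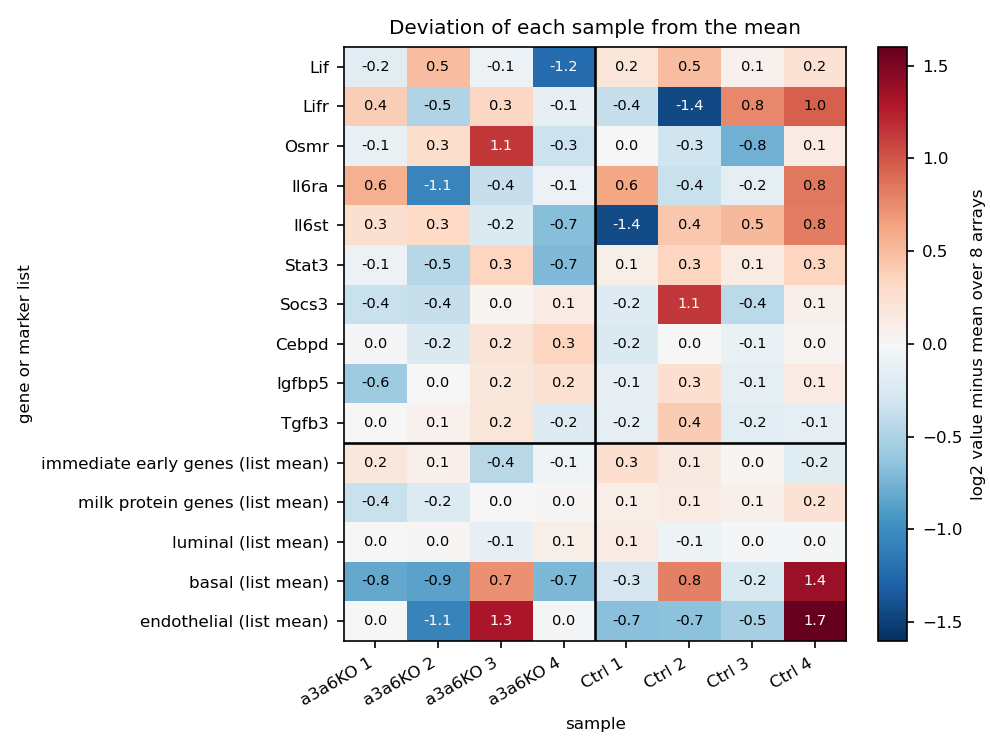
Deviation of each sample (columns, a3a6KO then Ctrl) from the mean over the 8 arrays, in log2 units, for the 10 genes (rows above the line) and the mean of 5 marker lists (rows below it). Lif and Stat3 are lowest in a3a6KO 4, Osmr is highest in a3a6KO 3 and Socs3 in Ctrl 2, and the basal and endothelial lists are highest in Ctrl 4.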

How the data were processed

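RNA of 8 samples (500 pg each, amplified and biotin-labelled) was hybridised to Affymetrix arrays. The authors deposited log2 values, made with Affymetrix Expression Console and RMA per the submitters' processing notes, with no versions stated. RMA makes the distributions of the arrays alike, which would hide a change common to most genes. Precision is limited by the number of arrays (median SE of a log2 difference 0.234).

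The values were used as deposited. Of 28846 probe sets, 19572 had 1 symbol in GEO's platform annotation, and for 55 genes with several sets the one with the highest mean was kept. The cell subtype label gave each sample's group. The 19505 genes were fitted with limma 3.58.1 (R 4.3.3, lmFit and eBayes, two-sided, group as the only term), p-values were adjusted by Benjamini-Hochberg over all of them, and 0.05 was the threshold. The fit was tested on simulated data. The 10 genes, the pathway lists (119 genes, 110 measured) and the marker lists were chosen with earlier results of these data known. Other genes named are the 3 of smallest p in each pathway list, Itga3, Itga6, Krt8, Krt14, Csn2 and Wap, the 3 genes most correlated with each of Stat3, Socs3 and Igfbp5, and those said to be singled out. Socs5 was added for its unadjusted p under 0.05 in limma, and Bcl6 for its promoter sequence. Alternatives were other normalizations, array weights, a filter on dim genes, the mean over probe sets, trend and robust options, the replicate number as a block and leaving out each sample.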

Additional observations from a re-analysis of the deposited data

Results flagged for a closer look

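Single samples that stood apart from the other 3 of their group by Dixon's ratio were sought in 98 groups of 4, 2 for each gene named with values or as most correlated. Chance flags about 1 in 20 groups chosen without regard to their values, and 6 were found. That rate is not exact here, because part of these genes, Csn1s1 among them, were chosen by their values. Among the 10 pathway genes there was 1, Tgfb3 in Ctrl 2, at 8.27 on the log2 scale with the nearest Ctrl value at 7.72. Ctrl 2 also had the highest Socs3 value, below background and within Dixon's limit. The others were Ebi3 in a3a6KO 3 (3.66, next value 3.04) and Pappa in a3a6KO 4 (3.66, next value 4.00), both below background, and, in milk protein genes, Csn2 in a3a6KO 1 (12.24, next value 12.44), Csn1s1 in a3a6KO 1 (11.63, next value 11.81) and Csn1s1 in Ctrl 3 (11.86, next value 12.05).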

How the results depend on the processing

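Under 15 alternatives, limma called 0 of the 10 genes, 0 of the other pathway genes and 0 of all genes, with 929 to 1061 of all genes at an unadjusted p under 0.05 where all were tested. Leaving out dim genes kept 2774 genes and 5 of the 10 (165 at an unadjusted p under 0.05). The smallest adjusted p of any of the 10 was 0.786, for Stat3 with dim genes left out. Of 110 recomputed differences that a setting could change, 97 kept their sign and 13 changed it, all on leaving out 1 sample. The ranges of the genes that changed sign were -0.42 to 0.38 for Lifr, -0.68 to 0.07 for Il6st, -0.48 to 0.046 for Socs3, -0.16 to 0.12 for Igfbp5 and -0.031 to 0.17 for Tgfb3, and the cause was not tested. The other 35 (trend and robust options, dim filter, mean over probe sets and block) are equal to the reported ones by construction. Setting array medians equal moved the median over all genes by under 0.03. Replicate numbers were shared between groups, but same-numbered samples did not deviate together (correlations -0.06 to 0.04), and the replicate block, which in this balanced design leaves every difference as it is (Stat3 -0.45, median of the 10 genes -0.12), called 0 genes. For the 5 genes near background, the signal over background limits what could be seen.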
